A study of Mus musculus with 1049 samples.

Results

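The 34 lysosomal genes described here code for lysosomal membrane proteins, cathepsins and other proteases, other acid hydrolases, precursor proteins that are cut in the lysosome, proteins of sterol release and export, subunits of the proton pump and 1 transcription factor. They were listed by name with earlier results of these data known, so counts of members set beside shares of all genes are descriptions only. All 34 were found among the 51777 genes that the deposited tables had in common. Their RNA was measured in single dermal fibroblasts, the connective tissue cells of the skin that make its collagen matrix, from C57Bl/6 mice of 3 ages. The newborn group was 1.5 or 2.5 days of age, the young group 2 months and the old group 18 months, and the labels name no engineered allele and no treatment. The labels name 2 experiments and no mice, and the only statement on sex is that newborn littermates for work on subpopulations were female. All 3 groups share the strain and the sort: cells were stained for immune, mast, epithelial and endothelial markers and for CD34 and Pdgfra, sorted singly into plates, and sequenced with Smart-seq2, which copies polyadenylated RNA along its whole length and adds no molecular identifiers.

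The lysosome is an acidic compartment in which hydrolases break down proteins, sugars and lipids that arrive by endocytosis or autophagy. A proton pump acidifies it, glycosylated membrane proteins line it, and NPC1 and NPC2 pass cholesterol out of it. The transcription factor TFEB and its relatives bind the letters CACGTG, often within TCACGTGA, upstream of many lysosomal genes. In fibroblasts, lysosomal cathepsins also take part in the turnover of collagen that the cell takes up.

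Of 861 wells, 735 cells were kept, 249 newborn, 246 young and 240 old. Adding up the reads of the cells of an age within an experiment left 6 sums, 2 for each age, with depths from 119682449 to 195324769 reads. Levels are in CPM, reads of a gene scaled to a common library size, with TMM factors unless stated otherwise. The TMM factors were 1.19 and 1.20 in newborn sums against 0.880 to 0.9497 in adult sums, so with plain library size the median of all tested genes lay 0.42 lower on the log2 scale in young against newborn and 0.36 lower in old against newborn. Because nothing says which cells shared a mouse, p-values measure the spread between these sums, which may be technical. Col1a1, Col1a2, Col3a1, Dcn and Lum were read in at least 89.2% of cells at every age. Of the other fibroblast markers, Pdgfra was read in 39.4% of newborn, 32.9% of young and 26.2% of old cells, and Pdgfrb in 20.5%, 24.0% and 23.3%. Of 14 macrophage markers 8 had no read in any sum, Adgre1, Tyrobp, C1qa, C1qb, C1qc, Mrc1, Ptprc and Laptm5. Summed levels of several marker lists moved with age and hence with the lysosomal genes, and apart from the removal of single cells described with Gpnmb, their part in the results was not tested. The 14 macrophage markers held 0 to 2.08 CPM in newborn sums, 49.6 to 187 in young and 40.3 to 41.1 in old. Most of the young level was Csf1r, with means of 0.447, 98.4 and 11.6 CPM in newborn, young and old. It was read in 1.20%, 16.3% and 4.17% of cells. In the same order Cd14 had 0, 10.1 and 14.5 CPM, Cd68 0.595, 8.91 and 7.55, and Aif1 0, 0.125 and 3.68. Fcer1g had 0, 0 and 3.32 CPM, and Lyz2 0, 0.501 and 0. The 5 antigen-presenting markers, of which Cd207 was at 0, held 0.957 to 3.77, 38.5 to 53.5 and 45.2 to 56.8 CPM. The 5 endothelial markers, with Cdh5 and Tie1 at 0, held 5.64 to 23.4, 44.4 to 82.0 and 63.2 to 74.2 CPM, of which Plvap was most in adults. The 4 pericyte markers, with Rgs5 at 0, held 0 to 7.20, 116 to 163 and 61.3 to 106 CPM. The 5 keratinocyte markers held 18.9 to 33.6, 43.6 to 47.3 and 57.1 to 70.9 CPM. In adult sums Krt5, Krt1 and Epcam were at 0, and the level was that of Krt10 alone but for 11.1 CPM of Krt14 in 1 old sum. The 7 fibroblast markers, with 0 of 7 undetected, held 66213 to 79440 CPM in newborn, 180769 to 183923 in young and 136143 to 143544 in old sums. Most of the adult level was Dcn, with means of 15616, 108155 and 111648 CPM in newborn, young and old. The collagen markers did not follow it and were lowest in old. In the same order Col3a1 had means of 24823, 19149 and 3439 CPM, Col1a1 9553, 15523 and 2118, and Col1a2 10093, 20950 and 4761.

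Promoter sequences are shown first because they carry the letters that TFEB and its relatives read. RefSeq windows on GRCm38.p6, 250 bases before to 50 after a start, were at hand for 29 of the 34 members. CACGTG, which reads the same on both strands, was found in 10 of these 29 (34.5%) and in 8.09% of 27025 genes with a window of the same length. The 10 were Atp6v0d1, Ctsa, Ctsd, Ctsl, Gla, Glb1, Lamp1, Mcoln1, Naglu and Sgsh. TCACGTGA, which contains CACGTG, was in 5 of 29 (17.2%), namely Atp6v0d1, Ctsa, Ctsd, Gla and Mcoln1, and in 1.12% of all genes. A match is a description of letters and not a measured binding site. The lines below are shown for members whose levels are described later; each gives 12 or 11 bases on either side of the motif, which is in capitals, and reads 5′ to 3′ on the gene's own strand.

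Ctsd: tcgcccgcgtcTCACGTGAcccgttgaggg
Mcoln1: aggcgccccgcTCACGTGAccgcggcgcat
Gla: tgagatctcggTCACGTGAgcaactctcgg
Lamp1: agggcaagatatCACGTGgtccagcgccca
Lamp1: tggtccagcgccCACGTGatgccgactggc
Glb1: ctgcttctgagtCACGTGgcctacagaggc
Ctsl: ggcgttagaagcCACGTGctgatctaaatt

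These lie at chr7:142387908-142387937 (minus strand, motif 98 bases before the start) for Ctsd, chr8:3500462-3500491 (plus strand, 45 bases before) for Mcoln1 and chrX:134601182-134601211 (minus strand, 194 bases before) for Gla. Lamp1 had 3 sites, of which those shown, chr8:13159088-13159117 and chr8:13159104-13159133 on the plus strand, lie 61 and 45 bases before the start. Mcoln1 had a further CACGTG 71 bases before the start and Gla a further TCACGTGA 227 bases before, which are not shown. The Glb1 site is at chr9:114401018-114401047 (plus strand, 48 bases before) and the Ctsl site at chr13:64370739-64370768 (minus strand, 236 bases before). Starts are those of RefSeq, and the sites shown for Ctsd, Mcoln1 and Ctsl lie within the longer gene spans of the annotation used to name the genes. Gpnmb, the member with the clearest difference between ages, had none of these letters in its window. Its last 120 bases before the start, chr6:49036398-49036517 on the plus strand, are printed for comparison and hold no capitals because no CACGTG was found.

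Gpnmb: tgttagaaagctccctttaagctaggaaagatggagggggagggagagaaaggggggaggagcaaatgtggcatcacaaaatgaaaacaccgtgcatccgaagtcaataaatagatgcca

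The letters CATGTG, or CACATG on the other strand, were also absent from the Gpnmb window and occurred in 7 of 29 members (24.1%) and 15.9% of all genes. The tested members with CACGTG had a median log2 fold change of 0.99 from newborn to young (n = 10) and those without it 0.80 (n = 18), and the medians from young to old were -0.13 and -0.11. No test was made of these medians.

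From newborn to young, Gpnmb was the only 1 of the 34 members past the edgeR threshold, while DESeq2 called 12, and it rose from 2 reads over both newborn sums to 40044 over both young sums. Gpnmb, a glycoprotein of lysosomes and melanosomes, lies on chromosome 6 from base 49036546 to 49070929 (GRCm38). Its level was 0.00967 and 0 CPM in the newborn sums of experiments 1 and 2, 114 and 169 in the young sums and 320 and 327 in the old sums. Both newborn reads came from 1 of 249 cells. No newborn sum reached any adult sum, and both old sums lay above both young sums. The old sums held 106066 reads, so the level scaled to library size was 24444 times that of newborn in young (95% counting interval 6766 to 201847) and 56588 times in old (15665 to 467270). These intervals cover the counting of reads only.

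The edgeR quasi-likelihood test over 16684 genes gave Gpnmb an adjusted p of 0.00961 for young against newborn and 0.00784 for old against newborn. The fitted log2 fold changes, 14.44 ± 0.81 and 15.63 ± 0.83 (SE), depend on the prior count because newborn was near 0. In young against newborn, 1 of 33 tested members was called higher and 0 lower, against 0.719% of all genes called higher and 0.0599% lower. In old against newborn the count was again 1 and 0, against 0.797% and 0.138%. With the experiment as a block, the adjusted p of Gpnmb was 0.0505 for young against newborn and 0.0411 for old against newborn. Leaving out a young or an old sum gave adjusted p of 0.0756 to 0.0807 for young against newborn, and for old against newborn 0.0504 without young experiment 1, 0.0860 without old experiment 1 and 0.104 without old experiment 2.

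Between young and old, Gpnmb was 2.28 times as high in old sums (324 ± 5.15 against 142 ± 39.0 CPM, mean ± SD, n = 2 each), but edgeR's adjusted p was 0.910 at a log2 fold change of 1.19 ± 0.45. DESeq2 on the same sums gave it an adjusted p of 0.0105. The old cells exceeded the young cells on 9 of 9 plates and the young cells exceeded the newborn cells on 9 of 9. Plates of an experiment may share mice, so they are not separate replicates. By plate, Gpnmb ran from 0 to 0.0490 CPM at plain library size in newborn, 43.7 to 202 in young and 196 to 532 in old cells.

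Gpnmb was read in a minority of adult cells at high levels. A read was found in 36 of 142 young cells of experiment 1 (25.4%, 95% exact binomial interval 18.4 to 33.3%) and 32 of 104 of experiment 2 (30.8%, 22.1 to 40.6%). Among old cells it was found in 49 of 126 (38.9%, 30.3 to 48.0%) and 46 of 114 (40.4%, 31.3 to 49.9%). With every cell thinned to 100000 reads the shares were 0% in both newborn sums, 23.9% and 28.8% in young and 38.9% and 37.7% in old, so the old shares stayed above the young ones at equal depth. In cells with a read, the median level was 444 and 490 CPM for the young sums of experiments 1 and 2 and 698 and 702.2 CPM for the old ones, and the highest cell reached 3529.

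**Figure D1:**
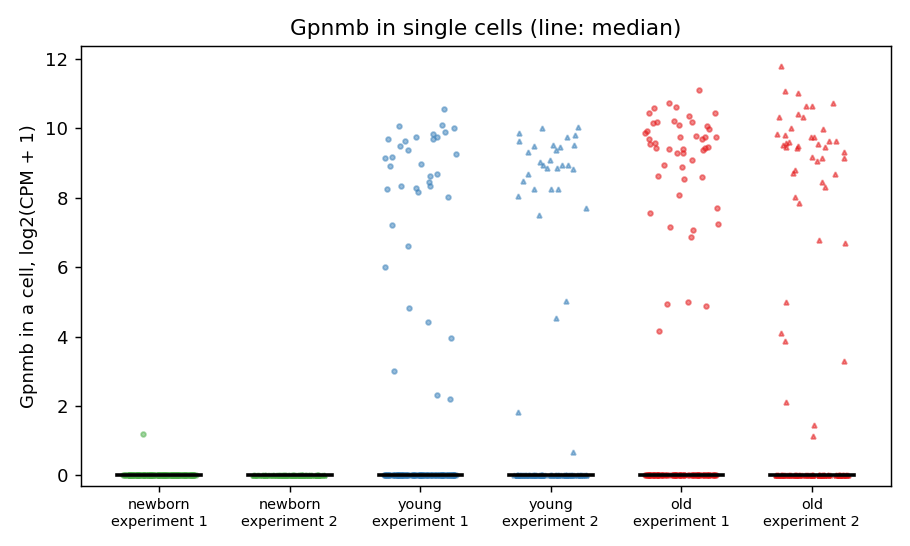
Gpnmb in each of the 735 kept cells, as log2(CPM + 1) at plain library size, by age and experiment. Each point is a cell and each line the median, which is 0 in all 6. Only 1 newborn cell left 0, while 68 young and 95 old cells did.

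Reads of at least 3 of the 7 fibroblast markers were found in all 68 young and 95 old cells with a Gpnmb read, and likewise in 98.7% to 100% of the adult cells without one. Of the cells with Gpnmb, 1 young and 1 old cell held reads of 2 or more macrophage markers, and these were the only such cells of all 735; without them the adjusted p was 0.00962 for young against newborn. At least 1 macrophage marker was read in 22.2% and 28.1% of young cells with Gpnmb and in 25.5% and 27.8% of those without. In old cells these shares were 10.2% and 23.9% with Gpnmb and 11.7% and 13.2% without. Of the melanocyte markers, Tyrp1 had no read at any age, Dct and Tyr had none in adult sums, and Mlana held 0.901 to 8.17 CPM in adult sums. Over the 5 melanocyte markers the sums held 4.52 to 18.4 CPM in newborn, 5.85 to 8.27 in young and 1.07 to 5.42 in old. In young cells of experiments 1 and 2, at least 1 melanocyte marker was read in 5 of 36 and 2 of 32 with Gpnmb. Without Gpnmb the counts were 4 of 106 and 6 of 72. In old cells they were 3 of 49 and 2 of 46 with Gpnmb, against 1 of 77 and 2 of 68 without. These differences were not tested. Mitf, the melanocyte regulator of the TFEB family, was at 0.0290 and 1.36 CPM in the newborn sums, 4.38 and 1.84 in the young sums, and 15.0 and 11.9 in the old sums, with an adjusted p of 0.421 for old against newborn (edgeR).

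Reads of the other 33 members took a larger part of the cells that had Gpnmb. In the young sums of experiments 1 and 2 the median share of a cell's reads was 1.42% and 1.52% with Gpnmb against 1.21% and 1.32% without. In old cells it was 1.42% and 1.31% against 1.10% and 1.09%. Median depth was 937971 and 1209013 reads in young cells with Gpnmb against 1241323 and 1197871 without, and 1369019 and 1690229 against 1134850 and 1422726 in old cells. In all 4 pairs the cells with Gpnmb had the larger share, which describes these cells and was not tested.

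Most members lay higher in young than in newborn sums, although edgeR called no other member. Of the 33 tested members 22 had both young sums above both newborn sums and 2, Scarb2 and Npc1, had both below, against 22.1% and 25.1% of all tested genes. Within each experiment on its own, 23 members were higher in young and 3 lower in both, against 4735 and 5469 of 16684 tested genes. Restricted to genes with reads in 10% of cells or more at some age, the counts were 20 and 0 of 26 members against 26.7% and 27.6%. The median log2 fold change of the members was 0.83 and that of all tested genes -0.07. With plain library size the counts were 14 higher and 6 lower, against 15.1% and 36.3% of all genes, and the medians 0.41 and -0.49. The fitted direction of 5 members, Asah1, Cd63, Gla, Gusb and Tfeb, turned to lower under plain library size. Unadjusted edgeR p values under 0.05 were found for 13 of the 33 members, all higher, and for 2214 of all 16684 genes, 1188 higher and 1026 lower. In bulk sums like these, fewer cells with a transcript and less RNA per cell cannot be told apart by the level alone.

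**Figure D2:**
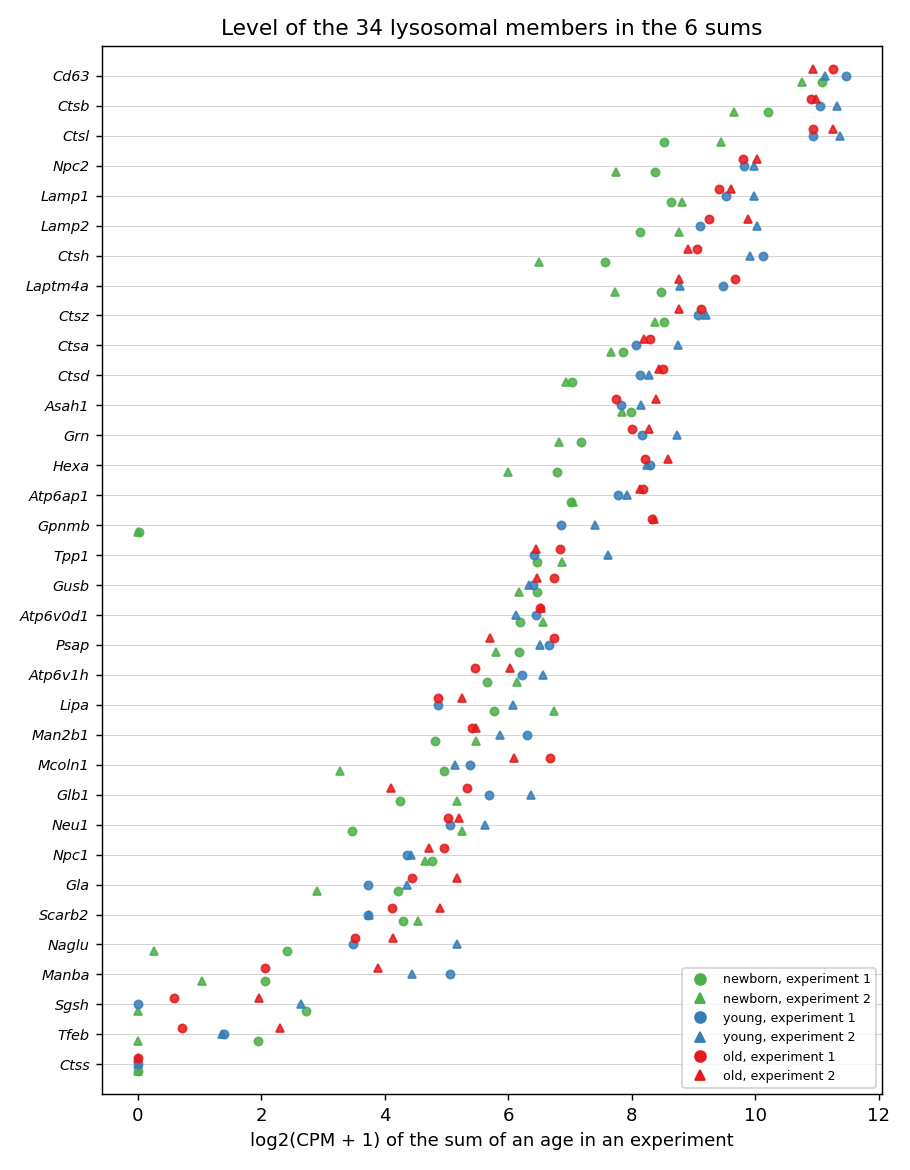
Level of each of the 34 members in the 6 sums, as log2(CPM + 1), with colours for age and symbols for experiment. Members are ordered by mean level. Newborn points lie left of the young points in 22 members, and Ctss is at 0 in all sums.

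Of the proteases 6 of 7 tested lay higher in young than in newborn sums without overlap and 0 lower, against 22.1% and 25.1% of all genes. None passed the edgeR test, while DESeq2 called Ctsb, Ctsd, Ctsh, Ctsl and Ctsz. Among members with reads in 10% of cells, Ctsh and Ctsl had the largest fitted differences after Gpnmb. Ctsh, cathepsin H, an aminopeptidase, had 189 and 89.4 CPM in the newborn sums, 1122 and 966 in the young sums, and 530 and 482 in the old sums. Its young sums were highest and its newborn sums lowest, with no overlap between any 2 ages. The log2 fold change was 2.90 ± 0.41 for young against newborn (adjusted p = 0.0763, edgeR), -1.04 ± 0.39 for old against young (adjusted p = 0.910) and 1.86 ± 0.40 for old against newborn (adjusted p = 0.151). The share of thinned cells with a Ctsh read followed the same order, with 32.3% and 24.2% for the newborn sums, 76.8% and 82.7% for the young sums, and 48.4% and 47.4% for the old sums. Ctsh was lower in old than in young cells on 9 of 9 plates.

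Ctsl, cathepsin L, an endopeptidase, had 368 and 694 CPM in the newborn sums, 1953 and 2651 in the young sums, and 1955 and 2441 in the old sums. Young and old overlapped and both lay above newborn, with log2 fold changes of 2.12 ± 0.38 (adjusted p = 0.123) and 2.05 ± 0.38 (adjusted p = 0.117, edgeR). Of its exonic bases 26.8% overlap the opposite-strand gene Gm47123, and the strand setting of the counting is not given in the sources used here. A further gene, Gm49230, overlaps 6.09% on the same strand. Ctsb, cathepsin B, had 1188 and 806 CPM in the newborn sums, 2126 and 2565 in the young sums, and 1917 and 2015 in the old sums. Fdft1 on the opposite strand overlaps 12.8% of its exonic bases. Both old sums of Ctsb lay below both young sums and above both newborn sums, with adjusted p of 0.155 for young against newborn and 1 for old against young.

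Ctsd, cathepsin D, the main aspartic protease of the lysosome, had 129 and 121 CPM in the newborn sums, 281 and 309 in the young sums, and 364 and 346 in the old sums. Newborn sums were lowest and old sums highest with no overlap, with an adjusted p of 0.0935 for young against newborn and 0.0560 for old against newborn (edgeR). The gene Gm49369 on the same strand covers 34.4% of its exonic bases, so its reads are uncertain to that extent. Ctsz, the carboxypeptidase cathepsin X, and Ctsa, the protective protein that holds a glycosidase complex together, had mean young levels of 1.61 and 1.60 times the newborn mean, without overlap. By plate at plain library size, young cells were higher than newborn cells on 8 of 9 plates for Ctsz and on 5 for Ctsa. Pltp and Neurl2 on the opposite strand overlap 10.5% and 6.87% of the exonic bases of Ctsa. Tpp1, tripeptidyl peptidase, overlapped between all ages, from 84.2 to 196 CPM. Ctss, cathepsin S, known from antigen-presenting cells, had 0 reads in 735 cells. By counting error this bounds the share of cells with a detected read at 0.408%, and sets no bound on the share of cells that hold the transcript.

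Among membrane proteins, 6 of 7 lay above newborn in both young sums and 1 below, against 22.1% and 25.1% of all genes. Under plain library size the counts were 2 and 1, against 15.1% and 36.3%. Besides Gpnmb none passed the edgeR test, while DESeq2 also called Lamp1. Lamp1, a heavily glycosylated protein of the lysosomal membrane, had 399 and 451 CPM in the newborn sums, 735 and 1011 in the young sums, and 680 and 782 in the old sums. Lamp2, its relative with a role in autophagy, had 280 and 433, 552 and 1040, and 609 and 942 CPM in the same order. Both adult ages lay above newborn for both genes, and young and old overlapped. Laptm4a, a small transmembrane protein of late endosomes and lysosomes, had 355 and 211 CPM in the newborn sums, 711.6 and 438 in the young sums, and 815 and 435 in the old sums. Experiment 1 was the higher at each age for Laptm4a, and newborn was lowest within both experiments.

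Cd63, a tetraspanin of late endosomes and lysosomes, was at 2173 and 1733 CPM in the newborn sums, 2853 and 2237 in the young sums, and 2442 and 1959 in the old sums. It was read in 98.1% to 100% of thinned cells of every sum, so nearly every cell carried it. Young lay above newborn without overlap, at 0.38 ± 0.23 (adjusted p = 0.579, edgeR), but at -0.04 under plain library size. By plate at plain library size, young cells were higher than newborn cells on 3 of 9 plates and lower on 6. Per kilobase of exon it led the list by mean at each age, with 530, 691 and 598 CPM per kilobase in newborn, young and old. Behind it in young cells stood Ctsz (391), Ctsb (388), Ctsl (355), Lamp1 (326) and Laptm4a (324) on the same scale. Exon length here joined the exons of all annotated transcripts of a gene, with 1441 bases for Ctsz, 6051 for Ctsb and 6489 for Ctsl. The order therefore depends on the annotation. Cd63 has a named pseudogene, Cd63-ps, so its reads depend on how shared reads were counted.

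Mcoln1, the calcium channel of the lysosomal membrane, had 30.3 and 8.69 CPM in the newborn sums, 40.7 and 34.3 in the young sums, and 101 and 67.6 in the old sums. The 3 ages did not overlap. Its log2 fold change was 1.17 ± 0.67 for old against young (adjusted p = 0.910) and 2.12 ± 0.68 for old against newborn (adjusted p = 0.248, edgeR). The latter was 3.28 without newborn experiment 1 and 1.48 without newborn experiment 2. Few cells carried it, and most of its reads came from 4 newborn, 6 young and 8 old cells. Scarb2, the receptor that carries beta-glucocerebrosidase to the lysosome, went the other way in young sums, with 18.7 and 22.3 CPM in the newborn sums, 12.3 and 12.5 in the young sums, and 16.5 and 28.9 in the old sums. Its log2 fold change was -0.73 ± 0.59 for young against newborn (adjusted p = 0.699).

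Of the 10 glycosidases and other hydrolases 5 lay higher in young than in newborn sums without overlap and 0 lower, against 22.1% and 25.1% of all genes. Under plain library size 4 lay higher and 2 lower, against 15.1% and 36.3%. Hexa, the alpha subunit of beta-hexosaminidase, had 110 and 63.2 CPM in the newborn sums, 315 and 303 in the young sums, and 295 and 382 in the old sums. Adult sums lay above newborn sums at a log2 fold change of 1.84 ± 0.34 in young (adjusted p = 0.134) and 1.97 ± 0.34 in old (adjusted p = 0.105, edgeR). Tmem202 on the opposite strand overlaps 12.8% of its exonic bases. Asah1, acid ceramidase, and Gusb, beta-glucuronidase, stayed within 215 to 334 CPM and 71.4 to 106 CPM over the 6 sums, with log2 fold changes of 0.07 and 0.04 for young against newborn that turned negative under plain library size.

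Glb1, the beta-galactosidase behind the staining for senescent cells, had 18.1 and 34.8 CPM in the newborn sums, 50.8 and 81.7 in the young sums, and 39.5 and 16.2 in the old sums. Old sums of Glb1 lay below young sums and overlapped newborn sums, with a log2 fold change of -1.25 ± 0.64 for old against young (adjusted p = 0.910, edgeR), which was -2.05 without old experiment 1 and -0.75 without old experiment 2. Man2b1, alpha-mannosidase, had 27.1 and 43.7 CPM in the newborn sums, 78.0 and 57.6 in the young sums, and 41.8 and 43.5 in the old sums, and old again lay below young at -0.67 ± 0.39 (adjusted p = 0.910). Both were higher in old than in young cells on some plates, Glb1 on 3 and Man2b1 on 4 of 9.

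Manba, beta-mannosidase, and Naglu, an N-acetylglucosaminidase, had large fitted differences that rested on few cells. Manba had 3.15 and 1.05 CPM in the newborn sums, 32.2 and 20.6 in the young sums, and 3.17 and 13.8 in the old sums, and was read in 1.10% to 3.52% of thinned cells. Naglu had 4.35 and 0.196, 10.2 and 34.9, and 10.5 and 16.6 CPM. Gla, alpha-galactosidase, and Neu1, sialidase, overlapped between newborn and young, and Sgsh, sulfamidase, had 0 to 5.58 CPM with 0 reads in 2 of the 6 sums. Card14 on the opposite strand overlaps 21.6% of the exonic bases of Sgsh.

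Of the precursors, Grn, progranulin, had 144 and 112 CPM in the newborn sums, 285 and 427 in the young sums, and 257 and 309 in the old sums. Young and old overlapped and both lay above newborn, at 1.47 ± 0.30 for young (adjusted p = 0.157, edgeR). Psap, from which the saposins are cut, had 71.5 and 54.6 CPM in the newborn sums, 101 and 90.8 in the young sums, and 106 and 51.3 in the old sums, so that only young lay apart from newborn.

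The 3 genes of sterol release and export split. Npc2, the soluble protein that hands cholesterol to NPC1, had 333 and 214 CPM in the newborn sums, 901 and 1011 in the young sums, and 896 and 1048 in the old sums. Adult sums of Npc2 lay far above newborn sums and young overlapped old, at a log2 fold change of 1.80 ± 0.28 (adjusted p = 0.0928) and 1.83 ± 0.28 (adjusted p = 0.0813, edgeR). Npc1, the membrane protein of the same step, had 26.2 and 24.2 CPM in the newborn sums, 19.6 and 20.6 in the young sums, and 30.2 and 25.3 in the old sums, at -0.33 ± 0.45 for young against newborn (adjusted p = 0.874). Lipa, the acid lipase that frees cholesterol from its esters, had 53.3 and 106 CPM in the newborn sums, 28.1 and 66.6 in the young sums, and 28.1 and 37.3 in the old sums. Both old sums of Lipa lay below both newborn sums, at a log2 fold change of -1.29 ± 0.59 (adjusted p = 0.401), and Lipa was read in 10.8% and 20.9% of thinned newborn cells against 3.97% and 7.89% of old cells.

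Among proton pump genes, Atp6ap1, an accessory protein of the pump, had 128 and 131 CPM in the newborn sums, 219 and 242 in the young sums, and 288 and 279 in the old sums, in that order with no overlap. Its adjusted p was 0.203 for young and 0.104 for old against newborn (edgeR). By plate at plain library size, Atp6ap1 was higher in old than in young cells on 4 of 9 plates and lower on 5. Atp6v0d1, a subunit of the membrane sector, stayed within 69.1 to 94.0 CPM, and Atp6v1h, a subunit of the soluble sector, had 49.3 and 69.9 CPM in the newborn sums, 73.7 and 93.1 in the young sums, and 42.9 and 64.1 in the old sums. Its old sums lay below its young sums, at -0.64 ± 0.37 (adjusted p = 0.910, edgeR). Tfeb itself, the transcription factor, was read in 3 cells at each age, with 0 to 3.96 CPM, so no difference between ages was detectable at this depth.

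**Figure D3:**
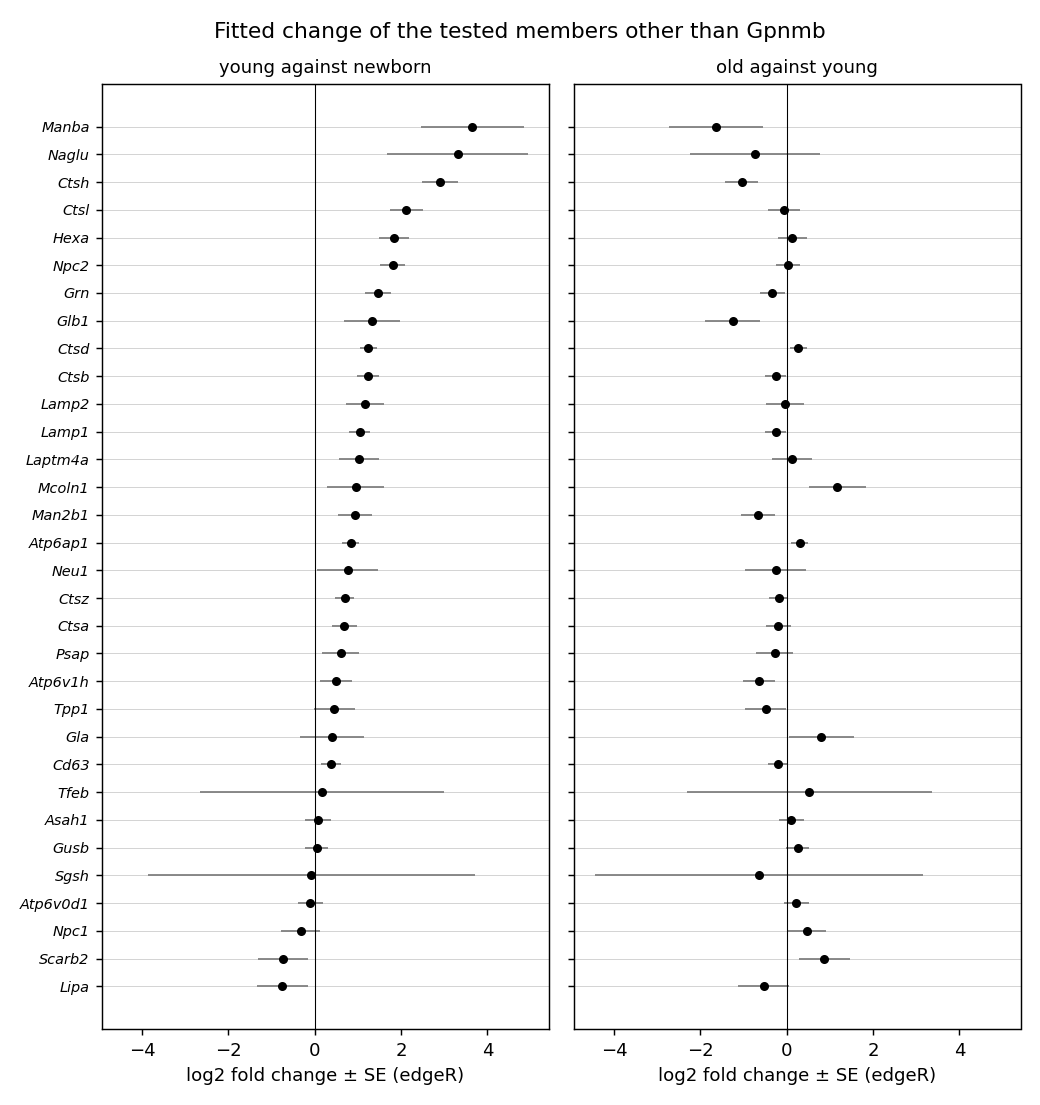
Log2 fold change (point) and approximate standard error (bar) from the edgeR fit for the 32 tested members other than Gpnmb. Young against newborn is on the left and old against young on the right, ordered by the left value. The standard error was derived from the F statistic of the test. On the left 27 of 32 points lie right of 0, and on the right they spread to both sides. Both panels use the young sums.

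From young to old no member passed the edgeR test, nor did any of the 16684 genes, with 810 genes and 2 members, Gpnmb and Ctsh, at an unadjusted p under 0.05. Background shares were therefore 0% in both directions. DESeq2 called 1 member, Gpnmb, against 2.39% of all genes called higher. Of the 33 members 9 had both old sums above both young sums and 6 below, against 15% and 15.9% of all genes. The 9 were Atp6ap1, Atp6v0d1, Ctsd, Gla, Gpnmb, Gusb, Mcoln1, Npc1 and Scarb2, and the 6 were Atp6v1h, Ctsb, Ctsh, Glb1, Man2b1 and Manba. The members' median log2 fold change was -0.19, that of all genes 0. Under plain library size the counts were again 9 and 6, against 16.7% and 14.5%. From newborn to old, 19 members lay higher without overlap and 1, Lipa, lower, against 21.6% and 25.6%, with a median of 0.69 against -0.08. Restricted to genes with reads in 10% of cells or more they were 16 and 1 of 26 members, against 26.7% and 28%. Under plain library size 13 lay higher and 4 lower, against 15.9% and 34.8%, and 9 members, among them Cd63, Glb1 and Psap, turned to a lower fitted direction. This comparison shares its sums with the other two.

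The number of members past the threshold depended on the test. For young against newborn DESeq2 called 12 members higher, against 8.06% of all genes called higher and 6.07% lower. The 12 were Gpnmb, Ctsh, Ctsl, Hexa, Npc2, Grn, Ctsd, Ctsb, Lamp1, Ctsz, Atp6ap1 and Manba. Fitted on genes with reads in 10% of cells, edgeR called 8 of them, against 5.35% higher and 1.71% lower. With the mean log2(CPM + 1) over cells, limma called 7, against 6.5% and 12.8%. On thinned cells edgeR called 5 (Gpnmb, Ctsh, Ctsl, Hexa and Npc2), against 1.7% and 0.318%, and without a filter on low counts 2 (Gpnmb and Ctsh), against 0.721% and 0.0875%. None of these 5 fits called a member lower.

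For old against newborn the members called higher were 11 in DESeq2, against 8.61% higher and 8.34% lower among all genes. They were 7 on genes with reads in 10% of cells (5.57% and 2.32%), 5 with limma (5.68% and 20.5%), 4 on thinned cells (1.74% and 0.522%) and 2 without a filter (0.739% and 0.171%). Gpnmb was called in each of these fits, and Ctsl, Hexa and Npc2 in each but the one without a filter. For old against young the single call was that of DESeq2 for Gpnmb, against 2.39% of all genes higher and 3.89% lower. The other fits called 0% of all genes higher except limma (0.0287%), and 0.129% lower on genes with reads in 10% of cells, 0.0861% with limma, 0% on thinned cells and 0.00875% without a filter.

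Within both experiments fewer genes were read per cell at each older age, with a median of 2193 and 2746 genes in the newborn sums, 1968 and 2516 in the young sums, and 1814 and 2137 in the old sums. With cells thinned to 100000 reads, 16 of 34 members had a higher share in both young sums than in both newborn sums and 2 a lower one, against 14.2% and 33% of all tested genes. For old against newborn the counts were 16 and 5, against 11.9% and 41.9%. For old against young they were 1 and 10, against 8.63% and 21.6%, and the 1 was Gpnmb. The median number of members with a read in a thinned cell was 9 and 10 for the newborn sums, 12 and 15 for the young sums, and 11 and 12 for the old sums.

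**Figure D4:**
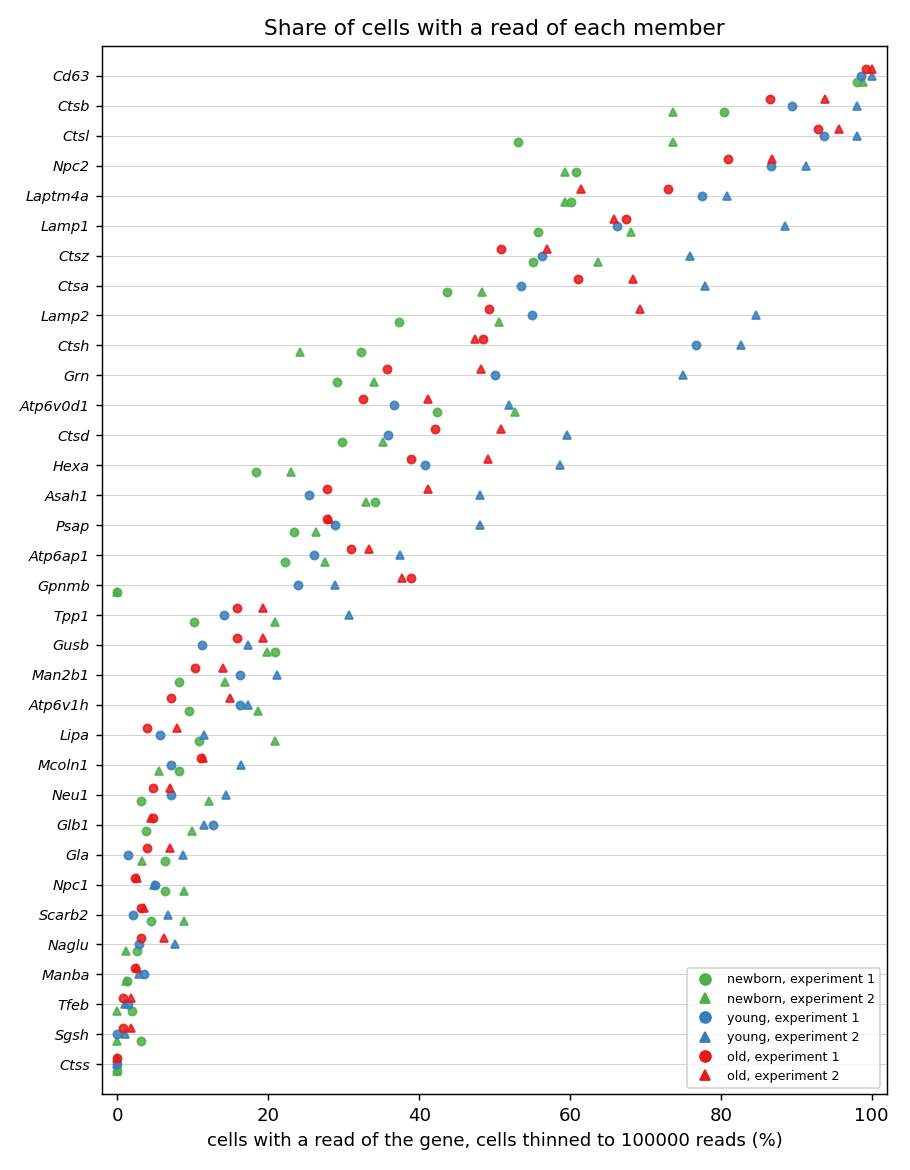
Share of cells with at least 1 read of each member after thinning every cell to 100000 reads, by age (colour) and experiment (symbol), ordered by the mean. In 16 members both young points lie above both newborn points, and for Gpnmb both old points, 38.9% and 37.7%, lie above both young points, 23.9% and 28.8%.

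Added up, the 34 members held 7232 and 6515 CPM in the newborn sums, 13946 and 15603 in the young sums, and 13236 and 13518 in the old sums. Adult sums were above newborn sums in both experiments, and old sums were below young sums in both. With plain library size the levels were 8710 and 7763, 12627 and 13736, and 12570 and 12443 CPM. In single cells the members took a median of 0.861% and 0.781% of reads for the newborn sums, 1.29% and 1.38% for the young sums, and 1.24% and 1.20% for the old sums. Single cells ranged widely, from 0.0689% to 1.64% in newborn and from 0.143% to 2.48% in old cells. The summed level was higher in young than in newborn cells on 9 of 9 plates and higher in old than in young cells on 3 of 9.

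**Figure D5:**
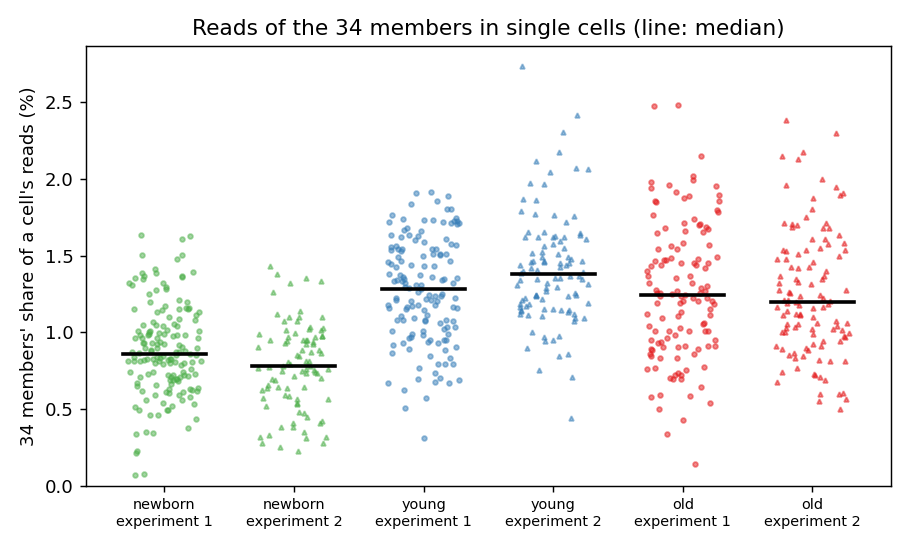
Share of each cell's reads that came from the 34 members, in percent, by age and experiment. Each point is a cell and each line the median. The 2 newborn medians, 0.861% and 0.781%, lie below the 4 adult medians, 1.20% to 1.38%.

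Of 112 other lysosome and autophagy genes 107 were tested, and 3 passed the edgeR threshold in both comparisons with newborn, all higher, among them 2 cathepsins, against 0.719% and 0.797% of all genes called higher. Leaving out any 1 sum left 0 calls in both comparisons, and under plain library size Ctsk alone passed for old against newborn. Ctso, cathepsin O, had 39.4 and 48.2 CPM in the newborn sums, 292 and 284 in the young sums, and 161 and 158 in the old sums, with adjusted p of 0.0223 for young and 0.0429 for old against newborn (edgeR). Ctsk, cathepsin K, the collagen-cleaving protease, had 303 and 360, 2489 and 2749, and 1521 and 1353 CPM in the same order, with adjusted p of 0.0105 and 0.0233. Both were highest in young sums, as Ctsh was, with no overlap between newborn and adult sums. With the experiment as a block 0 of the 3 passed; adjusted p for young against newborn was then 0.0505 for Ctsk and 0.0558 for Ctso.

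No other gene of these lists passed. For young against newborn 51 of the 107 lay higher without overlap and 9 lower, against 22.1% and 25.1% of all genes. Under plain library size 31 lay higher and 18 lower, against 15.1% and 36.3%. Their median log2 fold change was 0.62. For old against young 13 lay higher and 24 lower, against 15% and 15.9% of all genes, with a median of -0.08. Among 24 other hydrolases 12 lay higher and 2 lower in young against newborn, among 14 tested pump subunits 8 and 1, and among 16 autophagy genes 7 and 1, all against the same 22.1% and 25.1%.

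Among the genes with large differences in these lists were cystatin C, autophagy proteins and an acid phosphatase. Cst3, which codes for cystatin C, an inhibitor of cathepsins, had 552 and 286 CPM in the newborn sums, 1445 and 890 in the young sums, and 1716 and 1511 in the old sums. Its 3 ages did not overlap, with an adjusted p of 0.249 for young and 0.153 for old against newborn (edgeR). Sqstm1, the autophagy receptor p62, had 217 and 301 CPM in the newborn sums, 596 and 883 in the young sums, and 636 and 903 in the old sums. Map1lc3b, the autophagosome protein LC3B, had 770 and 516.7, 1345 and 1800, and 1460 and 1461 CPM in that order. For both, the adult ages overlapped and lay above newborn, with adjusted p of 0.178 and 0.172 for young against newborn.

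Cd164, a sialomucin of endosomes and lysosomes, had 325 and 391 CPM in the newborn sums, 904 and 669 in the young sums, and 711.5 and 680 in the old sums (adjusted p = 0.157 for young against newborn, edgeR). Atp6v1b2, a subunit of the pump's soluble sector, had 55.7 and 35.3, 125 and 119, and 81.7 and 59.5 CPM, with both old sums between newborn and young. Gnptg, a subunit of the enzyme that makes the mannose 6-phosphate sorting tag, had log2 fold changes of 1.63 ± 0.58 for young and 1.54 ± 0.57 for old against newborn (adjusted p = 0.326 and 0.306). Lamtor3, of the complex that anchors nutrient signalling to the lysosome, had 1.04 ± 0.33 and 0.86 ± 0.33 (adjusted p = 0.273 and 0.314). Acp2, a lysosomal acid phosphatase, went the other way, with 41.8 and 89.4 CPM in the newborn sums, 9.06 and 15.6 in the young sums, and 61.1 and 43.1 in the old sums. Its young sums lay below all others, with an adjusted p of 0.206 for young against newborn and 0.906 for old against young.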

How the data were processed

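The authors deposited raw read counts per gene and cell, in tables by plate. GRCm38 and FastQC are named in the submitters' processing notes; no source used here names the aligner, the counter or the strand setting. Of 1049 columns 5 without values were left out. Tables of 2 plate pairs correlated well by well at 0.994 (other pairs at most 0.430) and were added as 2 runs of the same wells. Of the counts above 0, 75.2% were even, so counting intervals may be too narrow if both mates were counted. Genes were named from GENCODE M21 (51633 of 51777 matched). Cells with at least 50000 reads, 1000 genes and at most 25% mitochondrial reads were kept, 246349 to 4331293 reads each; no doublet caller was run.

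Counts were summed by age and experiment and tested with edgeR 4.0.16 in R 4.3.3 (TMM, filterByExpr, robust quasi-likelihood fit of the 3 ages, 3 residual degrees of freedom, Benjamini-Hochberg threshold 0.05). The edgeR test gives no standard error. The SE printed with its log2 fold changes is their absolute value divided by the square root of the F statistic, an approximation. DESeq2 1.42.0 and limma 3.58.1 were alternatives. Thinning drew 100000 reads per cell. The scripts were tested on simulated data with a smaller spread between sums than here, so that test does not show the power in these data. The common biological coefficient of variation, edgeR's estimate of the spread between sums of an age, was 1.135 here. The experiment number in the labels marks a shared batch and so pairs the sums; sums of the same experiment had deviations from their age means that correlated, across genes, at -0.00017, 0.0107 and 0.0125. The members and lists were chosen with earlier results of these data known. Values in every sum are given for called members and, below 6 calls, for the 6 with the largest fold change, the same direction in both experiments and reads in 10% of the cells of 1 age; other members were named to complete their role groups. Of the other lists, called genes and a few of those with the largest fold change are named, except 1 called gene that is not reported here; Mitf was added after its values were seen. Promoters came from RefSeq (GRCm38.p6), and the letters CATGTG were added after seeing the data. Of the other lists Atp6v0a3 was matched by no symbol in the tables.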

Additional observations from a re-analysis of the deposited data

How the results depend on the processing

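With 2 sums per age, calls moved with the test. Members called higher in young against newborn, 1 in edgeR, were 12 with DESeq2, 8 among genes read in 10% of cells, 7 with limma on per-cell means, 5 in thinned cells, 2 without a filter and 0 with the replicate block; leaving out 1 sum gave 0 to 1. For old against newborn they were 11, 7, 5, 4 and 2 in the same order, and 1 with the block; leaving out 1 sum gave 0 to 1. For old against young DESeq2 called 1. No alternative called a member lower. Of the other lysosome and autophagy genes, edgeR called 3 higher in young against newborn and 0 with the block. DESeq2 called 23 higher, against 8.06% of all genes, limma 10, against 6.5%, and the 10% filter 5, against 5.35%. For old against newborn DESeq2 called 20, against 8.61%, limma 5, against 5.68%, and the 10% filter 7, against 5.57%. The block called 0, and plain library size, chosen after seeing the data, 1. Called lower in young against newborn were 3 with DESeq2, against 6.07%, and 1 with limma, against 12.8%. In old against newborn they were 3 and 2, against 8.34% and 20.5%. For old against young DESeq2 called 2 higher and 5 lower, against 2.39% and 3.89%. The limma and 10% filter shares are of genes read in 10% of cells. The cause was not tested.

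With all wells of at least 50000 reads, 4 members had a lower share of cells in young than in newborn and 17 in old than in young. No share of all genes is given for this setting, so its counts cannot be weighed against a background. In the kept cells after thinning, 2 and 10 of 34 members were lower without overlap, against 33% and 21.6% of all tested genes. Higher without overlap were 16 and 1, against 14.2% and 8.63%. The log2 ratio of the summed level, 1.10 for young and 0.96 for old against newborn, was 0.68 and 0.60 with plain library size, 0.69 and 0.59 as the mean share per cell, and for old against newborn 1.18 without Cd63. The fold changes of the members named by the rule and of Ctsk and Ctso kept their direction in all 16 alternatives. Counting CACGTG only before the start gave 9 members in place of 10.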
